A study of Mus musculus with 14 samples.

Results

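The expression of autosomal genes was compared between male (XY) and female (XX) germ cells of the mouse gonad at embryonic day 13.5 (E13.5), with 2 arrays for each sex. The comparison was set by age, sex and chromosome alone and by no measured value: of 18194 genes tested in the series, 17402 lie on an autosome, and the 617 X-linked and 9 Y-linked genes and 166 genes without a chromosome in the gene table were left out. The series holds 14 arrays in 7 groups of 2, from E9.5 to E13.5, and the sexes were collected apart at E12.5 and E13.5 only. The groups from E10.5 to E13.5, used here, came from BDF1 females mated with males of a B6/CBA mixed background. The males carried the stella-EGFP transgene, in which green fluorescent protein marks cells that use the germ cell gene stella (Dppa3). Genital ridges were dissociated with trypsin, and fluorescent cells were sorted. RNA of 5 ng, equal to 500 cells, was amplified with 12 initial PCR cycles before hybridisation. No group had a mutation or a drug treatment. The labels call the 2 arrays of a group biological replicates and do not say how many embryos or litters were pooled, so p-values measure the spread between these samples.

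In the fetal gonad, germ cells of both sexes arrive as dividing, bipotent cells. In the ovary, retinoic acid and BMP signals act on them, they switch on Stra8 and its partners, and they enter meiotic prophase. In the testis, Sertoli cells clear retinoic acid and send FGF9, germ cells turn on Nodal signalling and later NANOS2 and DNMT3L, and they stop in mitotic arrest without entering meiosis.

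Values are the authors' deposited log2 levels, 1 probe set for each gene. A difference is given as male minus female on the log2 scale, so a difference of 1 is a fold of 2. A gene passed at an adjusted p under 0.05 in limma, adjusted over all 18194 genes, and levels under 4.72, the median of the whole table, are called dim. A fold against a dim level depends on where the array bottoms out and is less certain than its size. In bulk samples, fewer cells of a type and less RNA for each cell cannot be told apart.

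Of the germ cell markers, 4 read high on the 4 arrays in both sexes. Levels were 13.36 to 13.76 for Dppa3 and 13.16 to 13.52 for the RNA-binding protein gene Dazl. They were 12.62 to 12.89 for the helicase gene Ddx4 and 12.44 to 12.76 for the pluripotency factor gene Pou5f1. None of these 4 genes passed. The cells were sorted by a Dppa3 reporter, so the level of Dppa3 is no independent evidence. Of all 14 measured germ cell identity genes, 3 were lower in males and are named below. The Y-linked gene Eif2s3y read 11.53 and 11.32 in males, 5.93 in female replicate 1 and 2.58 in female replicate 2. The Y-linked gene Kdm5d read 6.87 and 7.66 in males and 1.44 and 1.76 in females. Both genes were apart between the labelled sexes. Female replicate 1 read higher than female replicate 2 in Eif2s3y and lower in Kdm5d. The gap between 3' and 5' probe sets of the control gene Gapdh, which grows as RNA or cDNA is shorter, was 1.57 and 1.23 on replicate 1 of males and females and 3.16 and 3.09 on replicate 2. That gap split the replicates of each sex and left the sexes balanced. The same gap of the control gene Actb was 3.29 and 3.13 on replicate 1 of males and females and 2.94 and 3.09 on replicate 2. It was thus no larger on replicate 2, unlike that of Gapdh.

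At E13.5, 1722 autosomal genes (9.9%) passed: 742 (4.26%) were higher in males and 980 (5.63%) were lower. The higher genes had a median difference of 1.27, with 507 at 2-fold or more and 53 at 8-fold or more. The lower genes had a median of -1.52, with 833 at 2-fold or more and 91 at 8-fold or more. In 130 of the 742 and 236 of the 980 the lower sex was dim. The median over all autosomal genes was -0.015. With the 4 arrays fitted alone in limma, 469 genes were higher and 746 lower in males. Both male arrays read above both female arrays in 23.1% of all autosomal genes and below them in 26.1%, passing or not, so arrays that do not overlap are common at this group size. With each array centred on its median, all differences moved up by 0.19, and 61.7% of the genes that passed were higher in males against 43.1% as deposited (47.3% after quantile normalization). The count fell when any 1 of the 4 arrays was left out. Such a fit leaves a lone array in 1 sex and gives less precision, so the fall does not show that the count rested on that array. With replicate 2 of both sexes left out, an alternative added after the data were seen, all 1722 genes kept the sign of their difference. They were picked for a difference on arrays that this fit reuses, so the kept signs are no independent evidence.

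**Figure D1:**
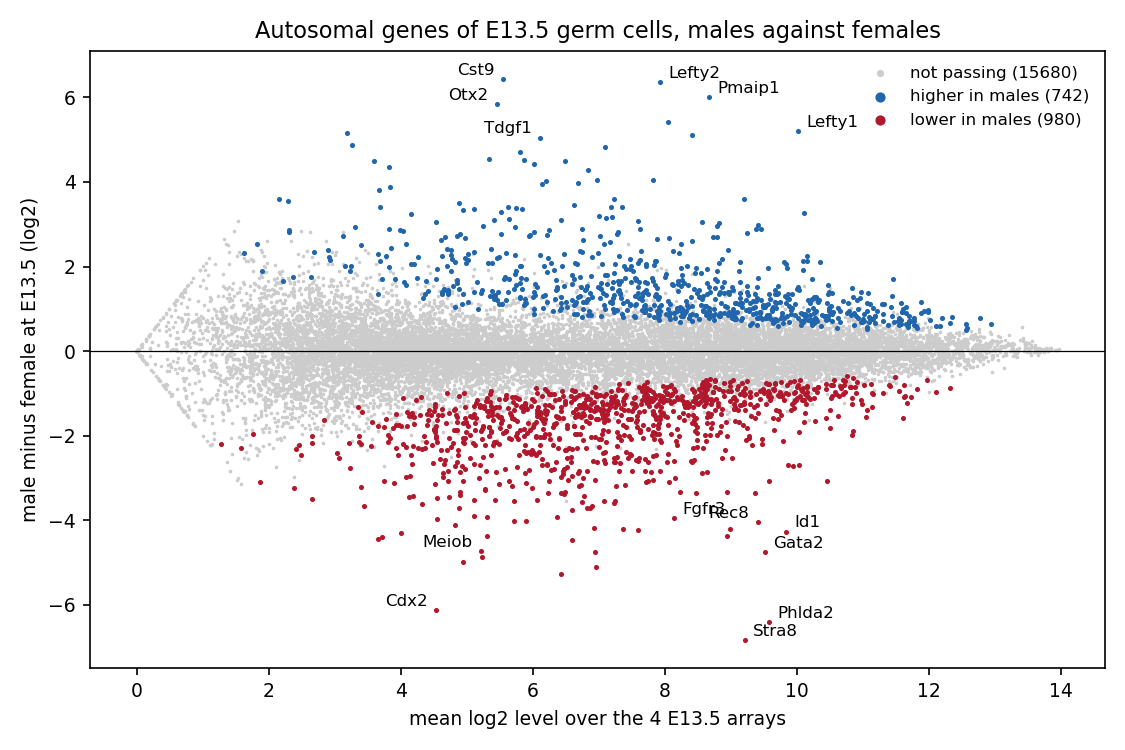
Each point is 1 autosomal gene, with its mean log2 level over the 4 arrays of E13.5 on the horizontal axis and its difference, male minus female, on the vertical axis. The 742 genes higher in males are blue and the 980 lower in males are red; Lefty2 (6.36) and Cst9 (6.44) lie at the top and Stra8 (-6.83) and Phlda2 (-6.40) at the bottom.

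Genes of meiotic entry were lower in males. Of 9 measured autosomal regulators, 6 passed, all lower in males, and the median was -1.44; 4 passed without female replicate 1 and 3 without replicate 2 of both sexes. Beside this and every list count that follows stand 4.26% of all autosomal genes higher and 5.63% lower in males and a median of -0.015, as a description: the lists were chosen with results of these data known, and their counts are no independent evidence. Stra8, the retinoic acid induced switch for meiosis, read 6.20 and 5.39 in males and 12.89 and 12.35 in females, a difference of -6.83 (SE 0.67, adjusted p = 0.00017). Its female arrays were among the bright readings of the table and its male arrays lay near the level of the median gene, 6.36, or under it. Meioc, which stabilises meiotic transcripts, read 5.89 and 5.08 in males and 9.90 and 9.51 in females (difference -4.22, SE 0.44, adjusted p = 0.000244). Zglp1, a GATA-like factor of the oogenic programme, read 8.13 and 8.36 in males and 10.21 and 10.41 in females (-2.06, SE 0.29, adjusted p = 0.00117). The groups did not overlap in any of these genes. Boll (-1.44) and Rbm46 (-0.99), both RNA-binding protein genes, were lower in males by less. Without 1 array at a time their differences were -1.78 to -1.09 and -1.14 to -0.84: Boll did not pass without female replicate 1 or male replicate 2, and Rbm46 passed only without male replicate 2. The sixth gene, Rec8, is counted among the cohesins too and described there. Dazl (-0.01), Mael (-0.45) and Ythdc2 (-0.92) did not pass.

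Genes for proteins that hold and pair meiotic chromosomes were in part lower in males, Rec8 most of all. Of 14 cohesin and synaptonemal complex genes, 7 passed, all lower in males, and the median was -0.93. Rec8, the meiotic cohesin subunit, read 7.45 and 7.32 in males and 11.57 and 11.29 in females (-4.04, SE 0.21, adjusted p = 6.43e-06). The next 3 were Smc1b (-1.58), another cohesin subunit, Sycp3 (-1.55), of the lateral element, and Syce1 (-1.25), of the central element. These genes were bright in both sexes: Sycp3 read 10.57 and 9.96 in males and 12.07 and 11.57 in females. The difference in Sycp3 was -1.30 without female replicate 1 and -1.25 without male replicate 2, with adjusted p of 0.0642 and 0.0622. Sycp1, the transverse filament, read 9.57 and 9.47 in males and 10.83 and 10.44 in females; its groups were apart, and it did not pass (-1.11, adjusted p = 0.0632), though it did with the 4 arrays fitted alone (adjusted p = 0.0325) and with array weights (0.0272). Tex12 (-0.99), Stag3 (-0.86) and Hormad1 (-0.80) completed the 7. Stag3 did not pass without female replicate 1 (-0.74) or male replicate 2 (-0.73), Tex12 passed only without female replicate 2 (-1.31) when an array was left out, and Hormad1 did not pass once any 1 array was left out (-0.94 to -0.66). Of the 7, 3 passed without female replicate 1.

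Recombination genes ranged from strongly unequal to equal. Of 20 measured, 9 passed, all lower in males, with a median of -0.58. Meiob, whose product coats single-stranded DNA during crossover repair, was dim in males at 3.01 and 2.68 and read 7.51 and 7.64 in females (-4.73, SE 0.57, adjusted p = 0.000532). Mei1, needed for double-strand breaks, read 4.44 and 3.38 in males and 7.72 and 6.38 in females (-3.14, adjusted p = 0.00179). Dmc1, the meiotic recombinase, read 6.79 and 6.38 in males and 9.45 and 8.66 in females (-2.47, adjusted p = 0.00126), and its difference was -1.35 as the mean of its probe sets, where it passed. Msh4 (-1.92), a crossover factor, was lower in males too, and not without female replicate 1 (-1.65, adjusted p = 0.0892) or male replicate 2 (-1.46, adjusted p = 0.0835). Prdm9, Ccnb1ip1 (-1.36), Tex15 (-1.0), Mei4 (-0.69) and Rec114 (-0.68), which act in hotspot choice, crossover, repair and break formation, completed the 9. Spo11, which makes the breaks, did not pass and read 9.74 and 9.02 in males and 9.78 and 9.27 in females (-0.14, adjusted p = 0.875). Mei1 and Spo11, both genes of break formation, thus differed in pattern at this age. Of the 9 genes, 3 passed without female replicate 1 and 2 without replicate 2 of both sexes, where Meiob had an adjusted p of 0.0525.

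The meiotic telomere complex was lower in males as a trio. Terb1 read 5.59 and 5.99 in males and 8.66 and 8.08 in females (-2.58, adjusted p = 0.00048), and its partners Majin (-2.46, adjusted p = 0.000506) and Terb2 (-1.55, adjusted p = 0.0224) passed. Terb2 did not pass without male replicate 1 (-1.04) or female replicate 1 (-1.23). The other 4 measured genes of telomere attachment, Terf1, Sun1, Sun2 and Cdk2, also work outside meiosis and lay between -0.37 and 0.13. Among 9 meiotic transcription and chromatin genes, Zfp541, a zinc finger gene of meiotic prophase, read 4.65 and 4.79 in males and 8.77 and 8.18 in females (-3.75, adjusted p = 0.00024). Prdm9, the hotspot methyltransferase, was the other gene that passed and is counted among the recombination genes too (-1.53, adjusted p = 0.0313); with 1 array left out it passed only without female replicate 2.

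**Figure D2:**
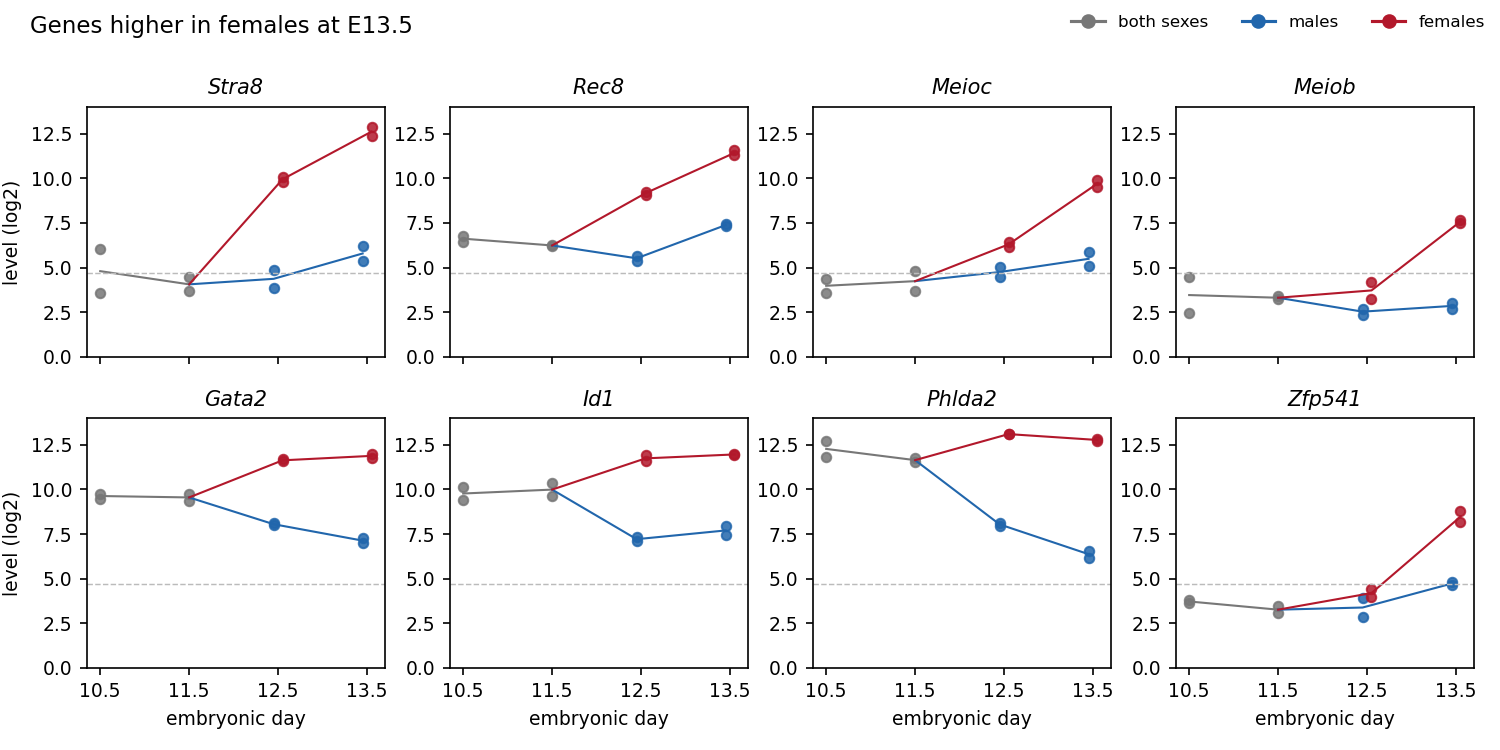
Log2 level of 8 genes on each array (points) and the group means (lines) from E10.5 to E13.5, in germ cells of both sexes (grey), males (blue) and females (red); the dashed line marks the table median of 4.72. Stra8, Rec8, Meioc, Meiob and Zfp541 have a higher female mean at E13.5 than at E12.5, and Gata2, Id1 and Phlda2 have male means below both E11.5 arrays.

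Promoter windows of the meiotic genes are described by their letters. They run from 250 bases before to 50 after a start listed by RefSeq (GRCm38.p6), and 13833 of the autosomal genes have one in the table. Stra8 is shown as the gene with the largest difference of all, and 5 of the 8 passing meiotic genes whose windows hold CACGTG, an E-box letter string, are shown as examples of it; they were picked with the matches known, and Tex12, Rbm46 and Rec114 hold it too. Capitals mark CACGTG and AGGTCA, a string of nuclear receptor sites, on either strand, so AGGTCA of the opposite strand reads TGACCT. The windows are chr6:34920698-34920997 (plus strand) for Stra8, chr9:21067044-21067343 (minus) for Zglp1, chr10:88459337-88459636 (plus) for Sycp3, chr3:95559427-95559726 (plus) for Hormad1, chr5:138280259-138280558 (plus) for Stag3 and chr1:55363704-55364003 (minus) for Boll.
Stra8: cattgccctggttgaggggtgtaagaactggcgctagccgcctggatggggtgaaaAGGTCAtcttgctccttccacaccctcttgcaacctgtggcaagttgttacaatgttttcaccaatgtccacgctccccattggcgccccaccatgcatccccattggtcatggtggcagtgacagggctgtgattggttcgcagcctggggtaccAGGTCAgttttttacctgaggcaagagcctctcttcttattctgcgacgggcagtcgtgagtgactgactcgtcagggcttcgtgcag
Zglp1: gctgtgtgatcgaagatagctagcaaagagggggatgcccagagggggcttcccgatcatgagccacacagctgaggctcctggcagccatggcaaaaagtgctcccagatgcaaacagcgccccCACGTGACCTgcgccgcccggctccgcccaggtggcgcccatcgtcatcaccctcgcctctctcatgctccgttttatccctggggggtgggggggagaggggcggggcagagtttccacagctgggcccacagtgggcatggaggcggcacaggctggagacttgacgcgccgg
Sycp3: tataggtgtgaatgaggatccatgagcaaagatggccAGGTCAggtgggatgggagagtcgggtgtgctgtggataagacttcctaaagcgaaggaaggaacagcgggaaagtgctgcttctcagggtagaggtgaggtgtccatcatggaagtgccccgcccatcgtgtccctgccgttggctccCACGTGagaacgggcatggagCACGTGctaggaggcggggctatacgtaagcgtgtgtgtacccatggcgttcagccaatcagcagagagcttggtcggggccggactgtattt
Hormad1: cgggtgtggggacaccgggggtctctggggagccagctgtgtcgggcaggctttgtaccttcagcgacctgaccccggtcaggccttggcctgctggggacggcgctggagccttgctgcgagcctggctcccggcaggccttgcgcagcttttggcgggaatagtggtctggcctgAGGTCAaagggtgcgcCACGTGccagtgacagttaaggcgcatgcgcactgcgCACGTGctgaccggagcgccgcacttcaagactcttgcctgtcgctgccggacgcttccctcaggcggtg
Stag3: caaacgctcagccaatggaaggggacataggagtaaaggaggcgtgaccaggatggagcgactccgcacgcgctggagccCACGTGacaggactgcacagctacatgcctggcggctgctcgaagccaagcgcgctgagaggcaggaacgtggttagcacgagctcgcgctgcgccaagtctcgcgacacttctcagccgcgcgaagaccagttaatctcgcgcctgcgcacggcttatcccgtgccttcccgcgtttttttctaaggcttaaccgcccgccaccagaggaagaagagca
Boll: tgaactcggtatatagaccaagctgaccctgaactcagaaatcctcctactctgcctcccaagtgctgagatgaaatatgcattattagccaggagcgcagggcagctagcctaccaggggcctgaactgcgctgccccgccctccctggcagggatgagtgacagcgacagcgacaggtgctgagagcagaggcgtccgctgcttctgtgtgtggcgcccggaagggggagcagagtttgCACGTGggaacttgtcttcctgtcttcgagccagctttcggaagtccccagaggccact
The Stra8 window held AGGTCA at positions -194 and -38 from the start and no CACGTG. Sycp3 held CACGTG at -64 and -43, and Hormad1 at -57 and -20. In Zglp1 both strings overlap, with CACGTG at -125 and TGACCT at -121. Over all 13833 windows, 9.0% held CACGTG, against 8 of the 21 passing meiotic genes with a window (38.1%) and 5 of the 27 that did not pass (18.5%). AGGTCA was in 13.9% of all windows, in 7 of the 21 (33.3%) and in 2 of the 27 (7.4%). The string CNCCTCAG, given for STRA8 binding, was in 9.1% of all windows, in 2 of the 21 (9.5%) and in 9 of the 27 (33.3%). Over all genes lower in males by 2-fold or more, CACGTG was in 6.5% of 674 windows and AGGTCA in 11.9%. The ratio of observed to expected CpG had a median of 0.68 over all windows, 0.71 in these 674 genes and 0.64 in the 385 genes higher in males by 2-fold or more. A match describes the letters of a window and is not a bound site, and no test was made.

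Targets of BMP signalling were the list furthest below 0. Of 18 measured genes of BMP response and oogenic fate, 9 were lower in males and 1 was higher, with a median of -1.87. Gata2, a transcription factor gene induced by BMP, read 6.97 and 7.30 in males and 11.99 and 11.78 in females (-4.75, SE 0.21, adjusted p = 1.45e-06). Id1, an inhibitor of basic helix-loop-helix factors, read 7.42 and 7.97 in males and 11.91 and 12.01 in females (-4.26, SE 0.32, adjusted p = 3.71e-05). In both genes the sexes were more than 3 log2 units apart on every array. Msx1, a homeobox gene that acts with its paralogue Msx2 in meiotic entry, read 6.74 and 6.84 in males and 10.18 and 10.09 in females (-3.35, SE 0.23, adjusted p = 2.2e-05). Zfp503, a zinc finger gene, was lower in males too (-3.56), as were Lhx2 (-3.0), Id2 (-2.85), Msx2 (-2.61) and Id3 (-1.98), and Zglp1, counted here too, made the 9. The receptor genes Bmpr1a (-0.50), Bmpr2 (0.14) and Bmpr1b (0.56) did not pass, nor did the inhibitory Smads Smad6 (-0.20) and Smad7 (0.17). Hey1, which also answers Notch, was the member higher in males (1.16, adjusted p = 0.00348). The 9 lower genes were 9 without female replicate 1 and 7 without replicate 2 of both sexes.

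Components of the retinoic acid pathway went in both directions. Of 16 genes, 4 were lower in males and 2 were higher, with a median of -0.59. Besides Stra8, the lower ones were the receptor gene Rarb (-2.72) and the binding protein genes Crabp1 (-2.42) and Crabp2 (-1.83). The higher ones make retinoic acid: Aldh1a1 read 7.74 and 6.20 in males and 4.10 and 3.63 in females (3.10, adjusted p = 0.0141), and Aldh1a2 read 8.45 and 8.40 against 6.58 and 7.02 (1.62, adjusted p = 0.00403). Cyp26b1, which breaks retinoic acid down and is known from Sertoli cells, was level (-0.04). Apart from Stra8 and Aldh1a2, these calls were lost when at least 1 array was left out. A lone array in 1 sex gives less precision, so a lost call does not by itself show that it rested on that array. Aldh1a1 (2.33 to 3.88) passed only without male replicate 2, Rarb (-3.36 to -2.08) only without male replicate 1, Crabp2 (-2.06 to -1.60) not without female replicate 1 or male replicate 2, and Crabp1 (-2.72 to -2.13) not without any 1 array.

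Genes of the later oocyte were split. Of 17, 2 were lower in males and 3 were higher, with a median of -0.30. Figla, the transcription factor that later drives the zona pellucida genes, read 5.74 and 5.97 in males and 8.15 and 8.36 in females (-2.40, SE 0.26, adjusted p = 0.000286). Zp2, a zona pellucida gene, passed in the same direction (-2.17) while dim on all 4 arrays (-0.62 with levels floored at 3.12), and with 1 array left out passed only without male replicate 1 (-2.91). Ooep, of the maternal complex of the egg, went the other way with 10.62 and 11.04 in males and 8.56 and 9.18 in females (1.96, SE 0.32, adjusted p = 0.00321). Nlrp5 (1.27), of that complex, and Zp1 (2.29), of the zona, were higher in males as well. Without 1 array at a time Nlrp5 ranged from 0.96 to 1.59 and passed only without male replicate 1, and Zp1 ranged from 1.99 to 2.59 and did not pass without female replicate 1 or male replicate 2.

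Some Nodal pathway genes were far higher in males. Of 19 genes, 5 were higher in males and 2 were lower; the median was 0.23, so the difference sat in a few members. The ligand gene Nodal read 5.76 and 6.45 in males and was dim in females at 4.0 and 3.89 (2.16, SE 0.28, adjusted p = 0.00081). Another probe set of Nodal, of the 2 on the array, had the opposite sign, and with the mean of both the gene did not pass. Tdgf1, the co-receptor CRIPTO, read 8.22 and 9.06 in males and 3.57 and 3.61 in females (5.05, SE 0.56, adjusted p = 0.000344).

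Lefty1 and Lefty2 encode feedback antagonists that Nodal induces. Lefty1 read 12.70 and 12.53 in males and 8.22 and 6.61 in females (5.20, SE 0.39, adjusted p = 3.81e-05). Lefty2 read 11.29 and 10.91 in males and 6.26 and 3.23 in females (6.36, SE 0.72, adjusted p = 0.000375). In both genes female replicate 1 read higher than female replicate 2, as in the Y-linked gene Eif2s3y and unlike the Y-linked gene Kdm5d. Without female replicate 1 the differences were 6.0 for Lefty1 and 7.87 for Lefty2, and without female replicate 2 they were 4.39 and 4.84, and both genes passed either way. The part of other cells in these readings was not tested.

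Otx2, a homeobox target of Nodal, read 8.73 and 8.01 in males and 2.72 and 2.35 in females (5.83, SE 0.35, adjusted p = 1.16e-05). Both female arrays were dim and under 3.12, the level used as a floor in an alternative, so the size of the fold is uncertain. The 2 genes lower in males were Pcsk6 (-1.97, adjusted p = 0.00142), a protease gene that matures the ligand, and the receptor gene Acvr2a (-0.98), which with 1 array left out passed only without male replicate 2. Acvr2a did not pass as the mean of its probe sets (-0.42, adjusted p = 0.367), after quantile normalization (-0.92) or with arrays centred (-0.80). The signal carriers Smad2 (-0.30), Smad3 (0.29), Smad4 (0.23) and Foxh1 (-0.62) did not pass.

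**Figure D3:**
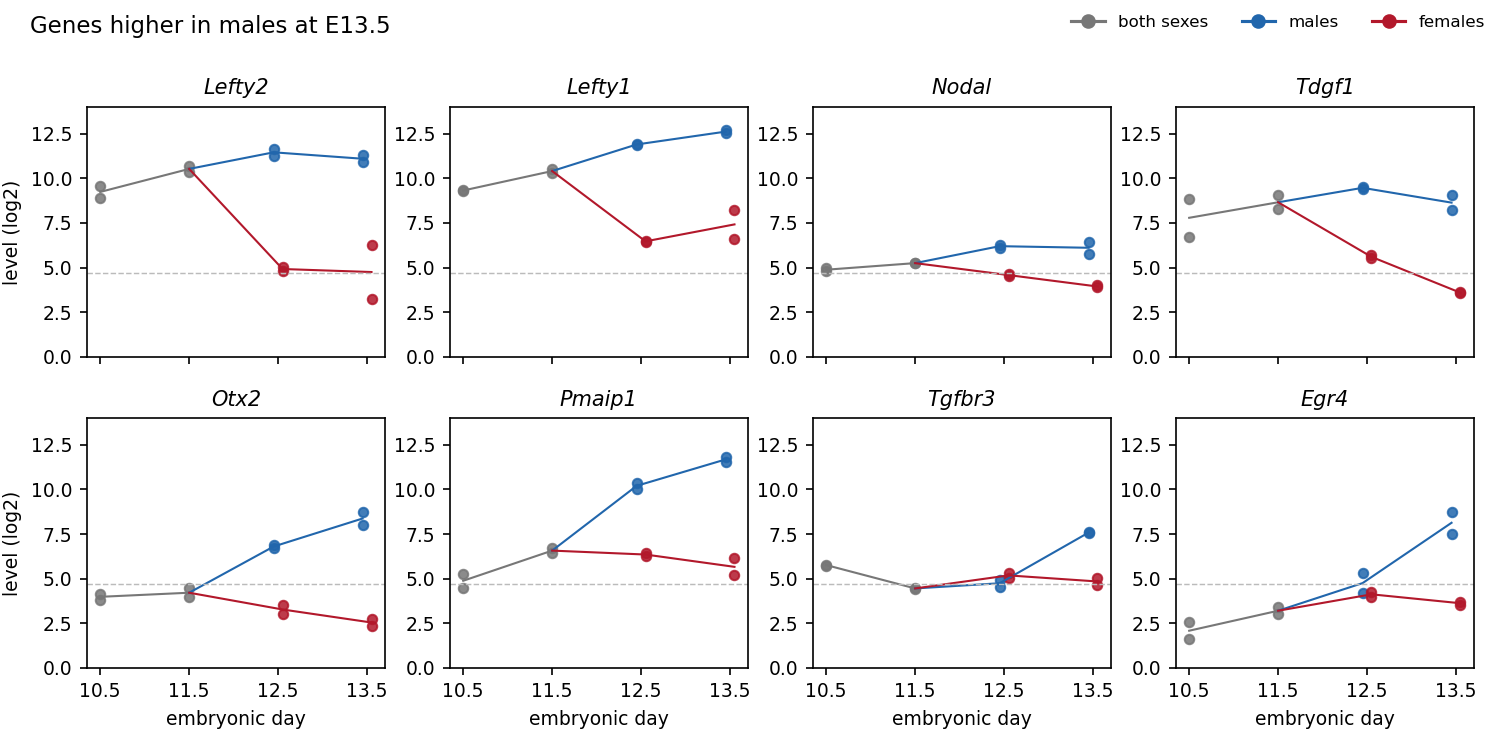
Log2 level of 8 genes on each array (points) and the group means (lines) from E10.5 to E13.5, coloured as in the plot of genes higher in females; the dashed line marks 4.72. Lefty2, Lefty1 and Tdgf1 have female means below both E11.5 arrays, while Otx2, Pmaip1, Tgfbr3 and Egr4 have a higher male mean at E13.5 than at E12.5.

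Of 15 genes of male germ cell fate, 1 passed: Bnc2, a zinc finger gene, read 9.93 and 10.23 in males and 7.22 and 7.53 in females (2.71, SE 0.34, adjusted p = 0.000672). Dnmt3l, the cofactor of new DNA methylation, read 4.30 and 3.51 in males and 1.19 and 0.95 in females, was dim on all 4 arrays and did not pass (2.83, adjusted p = 0.0686). It passed with the 4 arrays fitted alone (adjusted p = 0.0359) and with array weights (0.0296), and with levels floored at 3.12 its difference was 0.79. Piwil4, a piRNA effector, read 7.84 and 7.94 in males and 7.14 and 7.15 in females and did not pass (0.74, adjusted p = 0.134). Nanos2 was not analysed here. Among 21 piRNA pathway genes, Tdrd5 alone passed, with 11.73 and 11.79 in males and 10.65 and 10.10 in females (1.39, adjusted p = 0.00866), and it passed only without female replicate 1 when an array was left out. The 14 germ cell identity genes had a median of -0.08. Of these, Fut4, which makes the SSEA1 surface sugar, was lower in males at 5.84 and 6.34 against 8.90 and 8.95 (-2.83, adjusted p = 0.000134), as were the meiotic gene Sycp3 and the specification gene Tfap2c (-1.16, adjusted p = 0.00475), which did not pass without male replicate 2 (-0.94, adjusted p = 0.0502).

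Of 26 pluripotency genes, 5 passed, all higher in males, and 21 did not pass; the median was 0.38. Without female replicate 1, 3 passed (median 0.26), without replicate 2 of both sexes 1 passed (0.57), and with arrays centred 8 passed (0.57). Tdgf1 had the largest difference (5.05), and the others were L1td1 (1.31), Utf1 (1.11), Tcl1 (0.93) and Dppa4 (0.64). Utf1 differed by 0.70 as the mean of its probe sets and did not pass. All 4 lost the call when at least 1 array was left out: L1td1 without male replicate 1 (1.10, adjusted p = 0.0575), Utf1 with each array left out except female replicate 2 (0.80 to 1.43), Tcl1 with each of the 4 left out (0.91 to 0.94), and Dppa4 without male replicate 1 or female replicate 2 (0.52 and 0.55). The core factors did not pass: Pou5f1 differed by 0.26, Nanog by 0.65 and Sox2 by -0.06. Sox2 changed sign with arrays centred (0.13). Sox2 read 11.70 and 11.75 in males and 11.71 and 11.86 in females, so the sexes overlapped.

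FGF response was uneven between receptor and feedback genes. Of 17 genes, 4 were higher in males and 1 was lower, with a median of 0.54. The higher ones are induced by FGF and ERK: Dusp4 read 11.07 and 10.78 in males and 9.66 and 9.65 in females (1.27, SE 0.16, adjusted p = 0.000568), and Etv5 read 12.18 and 12.02 against 11.17 and 11.06 (0.98, SE 0.14, adjusted p = 0.00153). Il17rd (1.06) and Etv4 (1.41) were the others, and Etv4 passed only without female replicate 2 when an array was left out (1.77) and not as the mean of its probe sets (0.74, adjusted p = 0.111). The receptor gene Fgfr3 was lower in males, with 5.84 and 6.49 against 10.44 and 9.79 (-3.95, SE 0.29, adjusted p = 3.7e-05), and by -2.16 as the mean of its probe sets, where it passed. Fgfr1 (-0.77) and Fgfr2 (1.16) did not pass.

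Of 18 Wnt targets and modulators, 2 were higher and 2 lower in males, with a median of -0.19; without female replicate 1, and without replicate 2 of both sexes, 1 lower gene and no higher gene passed. Notum, a Wnt deacylase and target gene, read 7.85 and 7.71 in males and 9.57 and 9.39 in females (-1.70, SE 0.20, adjusted p = 0.000485), and Wnt4 was lower (-0.96) with no call once any 1 array was left out or as the mean of its probe sets (-0.58). The secreted inhibitors Wif1 (2.23) and Sfrp1 (1.36) were higher in males. Wif1 did not pass without female replicate 1 (2.06, adjusted p = 0.0529), and Sfrp1 did not pass once any 1 array was left out (1.14 to 1.58) or as the mean of its probe sets (0.76). The general target Axin2 did not pass (-1.48, adjusted p = 0.0624).

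Few genes of cell division passed at E13.5. None of 28 replication genes passed in limma (median -0.21), and of 29 genes of G2 and mitosis 3 passed, all higher in males (median 0.05). Troap, a spindle protein gene, read 6.33 and 7.12 in males and was dim in females at 3.71 and 3.80 (2.97, SE 0.32, adjusted p = 0.000298), and its difference was 1.61 as the mean of its probe sets, where it passed. The checkpoint genes Aurkb (0.77) and Bub1b (0.72) were near the threshold, and when an array was left out Aurkb did not pass (0.57 to 0.96) and Bub1b passed only without female replicate 1 (0.86). Mki67, a marker of dividing cells, read 12.15 and 11.59 in males and 12.04 and 11.82 in females, so the sexes overlapped (-0.06).

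Inhibitors and G1 regulators were less even. Of 17 cell cycle inhibitors, 3 were lower in males, 1 was higher and the median was 0.00. Gadd45a, a stress and arrest gene, read 5.07 and 5.48 in males and 7.92 and 8.31 in females (-2.84, SE 0.32, adjusted p = 0.000355). Cdkn2d, the p19 inhibitor, read 8.24 and 7.23 in males and 10.57 and 9.57 in females (-2.33), and passed neither without female replicate 1 nor without male replicate 2 (both -1.83). Gadd45g (-1.48) passed only without male replicate 1, and Cdkn3 (0.97), a phosphatase gene and the member higher in males, did not pass without female replicate 1 or male replicate 2. Inhibitors known from male germ cell arrest did not pass: Cdkn1b (p27) read 6.10 and 7.29 in males and 4.47 and 5.06 in females (1.93, adjusted p = 0.195), and Cdkn2b (p15) differed by 0.66 (adjusted p = 0.233). Cdkn1c (p57), an imprinted inhibitor, differed by -0.72 (adjusted p = 0.126). Of 14 G1 cyclins and kinases, Ccnd1, cyclin D1, was lower in males at 7.21 and 7.21 against 10.36 and 9.79 (-2.87, SE 0.38, adjusted p = 0.000958). Ccne1 (-0.80) was lower and Cdk6 (1.66) and Cdk4 (0.95) were higher in males; Ccne1 and Cdk6 did not pass once any 1 array was left out. Cdk6 differed by 0.62 as the mean of its probe sets and did not pass, and Cdk4 did not pass without male replicate 1 (0.75) or female replicate 2 (0.70).

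In the Bcl2 family of cell death genes 1 member stood apart from 14 measured. Pmaip1, which encodes the death promoting protein NOXA, read 11.52 and 11.83 in males and 6.13 and 5.19 in females (6.01, SE 0.35, adjusted p = 8.78e-06). Its difference was 6.49 without female replicate 1. Bid passed in the other direction (-0.68, adjusted p = 0.0377), and with 1 array left out only without female replicate 2, and not as the mean of its probe sets (-0.65). The median of the family was -0.12, and Bbc3 (-0.17), Bcl2l11 (-0.07) and Mcl1 (0.25) did not pass.

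Imprinted genes of both parental classes differed between the sexes, and a difference between the classes was not tested. Of 20 maternally expressed genes, 5 were lower in males and none higher (median -0.71), and of 24 paternally expressed genes 3 were lower and 3 higher (median 0.00). Phlda2, which restrains placental growth, read 6.17 and 6.57 in males and 12.72 and 12.82 in females (-6.40, SE 0.27, adjusted p = 1.45e-06). Its neighbour in the same imprinted domain, the transporter gene Slc22a18, read 5.29 and 5.54 in males and 8.35 and 8.56 in females (-3.04, SE 0.21, adjusted p = 2.76e-05). Grb10 (-1.82) was lower too and did not pass as the mean of its 3 probe sets. Osbpl5 (-2.33) and Gnas (-1.22) completed the 5, Osbpl5 not without replicate 1 of either sex (-1.75 without the male and -2.08 without the female array), and Gnas not without female replicate 1 (-1.02) or male replicate 2 (-1.06).

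Among paternally expressed genes, Plagl1, a zinc finger gene, read 8.74 and 9.09 in males and 12.00 and 11.97 in females (-3.07, SE 0.24, adjusted p = 5.28e-05). Slc38a4, an amino acid transporter gene, was lower in males too (-2.26, adjusted p = 0.000147), and Dlk1 (-1.50) passed with all arrays only and not as the mean of its probe sets (-0.94). Mest read 11.14 and 10.64 in males and 8.20 and 7.81 in females and was higher in males (2.88, SE 0.29, adjusted p = 0.000212). Peg10 (2.15) and Mcts2 (0.73) were higher in males with all arrays and not without any 1 of them; Peg10, dim on all 4 arrays, differed by 0.89 with levels floored at 3.12 and did not pass. None of 15 genes of DNA methylation and its removal passed in limma; Dnmt1 differed by -0.40, Uhrf1 by -0.53 and Tet1 by 0.87.

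**Figure D4:**
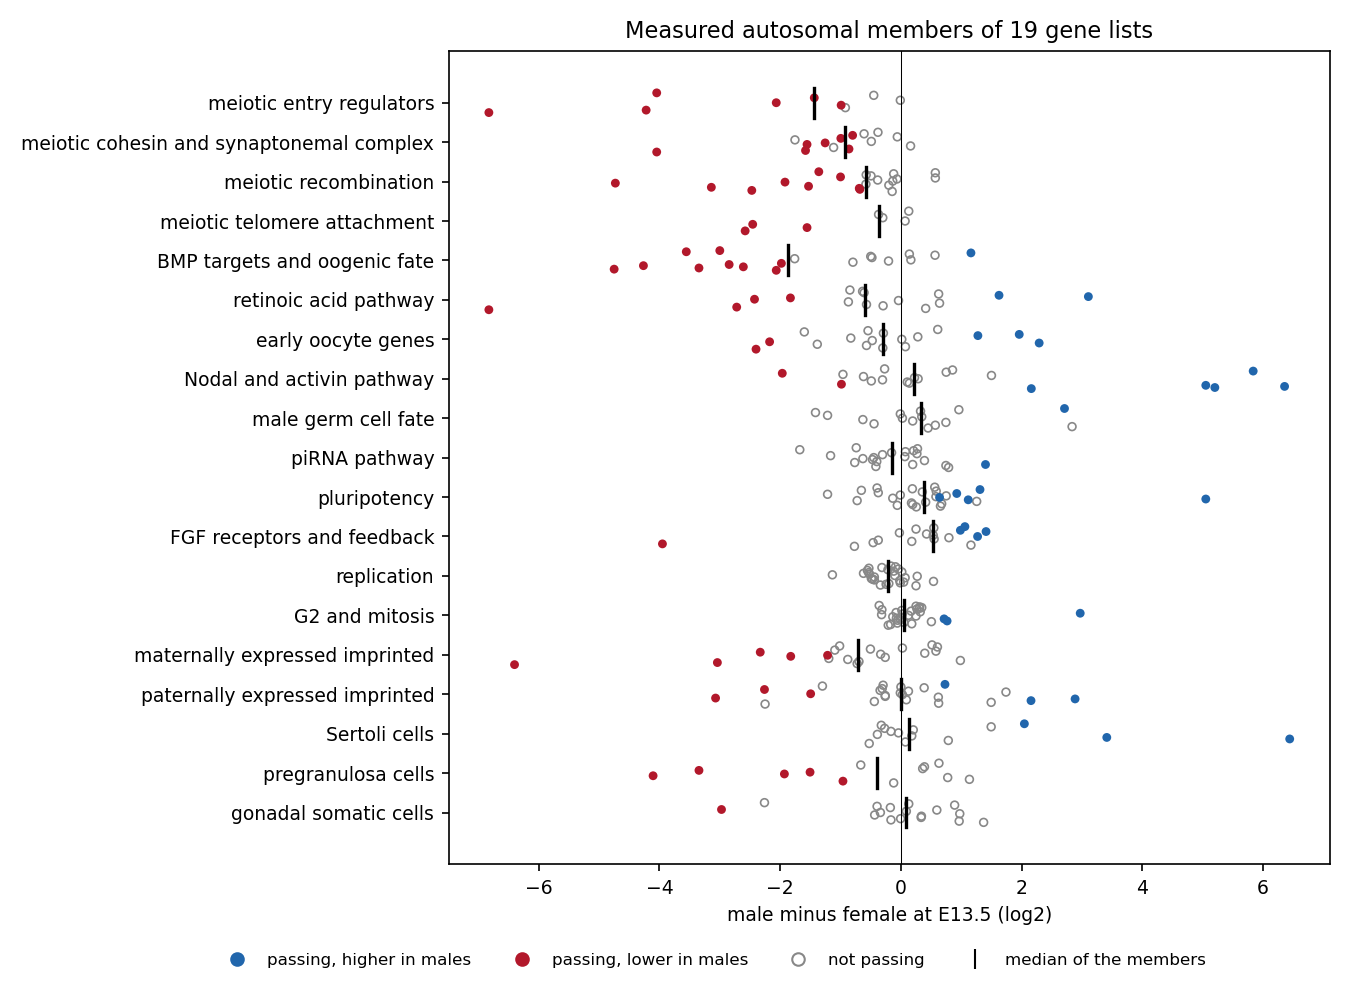
Difference at E13.5, male minus female, of each measured autosomal member of 19 gene lists; filled points passed (blue higher, red lower in males), open points did not, and the bar is the median of the members. Meiotic and BMP lists reach far to the left (Stra8 -6.83, Gata2 -4.75) and Nodal genes to the right (Lefty2 6.36). Replication genes lie between -1.14 and 0.54.

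Outside the lists, the rule for named genes added genes of varied function. Higher in females were Cdx2 (-6.13), a homeobox gene of trophectoderm, which was dim in males at 1.65 and 1.28 and read 7.36 and 7.83 in females (adjusted p = 1.43e-05), and Cubn (-5.27), the endocytic receptor cubilin, at 3.65 and 3.92 against 8.94 and 9.17. Prom1 (-5.09), a membrane protein gene, Gabra5 (-4.99), a GABA receptor subunit gene, Trmt9b (-4.87), Rhbdl3 (-4.76), Pwwp2b (-4.46), Dsp (-4.38), which encodes desmoplakin of desmosomes, and Dleu7 (-4.37) followed. All of these but Dsp had a dim male mean. The rule that named them asked for a pass, for arrays of the sexes apart and for a bright level in 1 sex, so these features are no finding. All passed without any 1 of the 4 arrays. As the mean of their probe sets the differences were smaller in Dsp (-2.90), Pwwp2b (-2.52) and Trmt9b (-3.03), which still passed.

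The corresponding genes higher in males included Cthrc1 (5.42), a secreted protein gene, at 10.87 and 10.64 in males and 6.11 and 4.55 in females, and Hesx1 (5.11), a homeobox repressor gene, at 11.05 and 10.86 against 6.32 and 5.38 (adjusted p = 2.43e-05). Mgst2 (4.83), a glutathione transferase gene, Hspbap1 (4.70), Meig1 (4.54), a gene of sperm formation, Egr4 (4.51), an early growth response factor gene, Cbr3 (4.49), Krt17 (4.43), a keratin gene, and Ctsw (4.29), a protease gene, completed the set. As the mean of their probe sets Hspbap1 (1.53) and Krt17 (2.29) had smaller differences that passed. Hspbap1 and Meig1 did not pass with replicate 2 of both sexes left out (adjusted p = 0.136 and 0.0591), while the other 7 did.

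Some markers of the somatic gonad differed between the sexes, while most did not pass. Of 14 Sertoli cell markers, 3 were higher in males: Cst9 read 9.11 and 8.44 in males and 3.52 and 1.15 in females (6.44, SE 0.74, adjusted p = 0.00041), Ptgds differed by 3.41 (adjusted p = 0.000535) and Clu by 2.04. Clu passed only without male replicate 2 when an array was left out. Sox9, another Sertoli gene, was dim on all 4 arrays, at 2.39 and 2.82 in males and 2.95 and 3.31 in females, too low to compare. Amh read 6.03 and 5.99 in males and 6.17 and 5.70 in females, so the sexes overlapped. The summed level of the Sertoli list was 11.04 and 10.49 in males and 9.68 and 9.75 in females on the log2 scale. Of 7 Leydig cell markers, the steroid enzyme genes Cyp17a1 (2.64) and Hsd3b1 (2.06) were higher in males, with summed levels of at least 10.93 against 10.60 and 10.21, and Hsd3b1 passed only without male replicate 2 when an array was left out. Of 12 pregranulosa markers, 5 were lower in males, Irx3 (-4.11), Msx1, Irx5 (-1.93), Bmp2 (-1.50) and Wnt4, the last 2 not once any 1 array was left out, and the summed levels were 9.96 and 10.06 against 11.03 and 10.94. Foxl2, which defines these cells, was level at 5.53 and 5.49 in males and 5.76 and 5.50 in females. Of 17 general gonadal markers, 1 passed, Nr2f1 (-2.98), and 7 were dim in both sexes; summed levels were 9.07 and 9.19 in males and 9.23 and 9.12 in females. Cldn5 (1.94) was the only one of 11 endothelial markers to pass, and not without female replicate 1 (1.68) or male replicate 2 (1.73); of 10 blood markers none passed in limma, with Hba-a1 listed at 0 on all 4 arrays. The part of somatic cells in the germ cell differences was not tested.

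Of 17 immediate early and heat shock genes, 4 were higher in males, Hspa1a (2.22), Zfp36 (1.72), Ier3 (1.48) and Dnajb1 (0.72), with a median of 0.22. Ier3 passed without any 1 array, Dnajb1 in no such fit (0.62 to 0.81), Hspa1a not without male replicate 1 (2.17) or female replicate 2 (1.91), and Zfp36 not without replicate 1 of males (1.64) or females (1.38). None of the 4 passed with replicate 2 of both sexes left out, and Fos was at 8.88 and 7.63 in males and 9.71 and 10.21 in females with no call (-1.71, adjusted p = 0.13). The part of handling was not tested.

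The sexes had already parted at E12.5. The arrays of the 2 ages are separate, but both tests came from 1 fit and share its estimate of spread for each gene. At that age 387 autosomal genes passed (2.22%), 117 higher in males (0.672%) and 270 lower (1.55%). Of the 117, 98 were also higher at E13.5 (83.8% of the E12.5 genes and 13.2% of the E13.5 genes), and of the 270, 216 were also lower (80.0% and 22.0%). No gene passed in opposite directions at the 2 ages. Passing at 1 age and not at the other is no test of change, so the change of the sex difference was tested itself.

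By that test 1 autosomal gene changed (0.00575%), with 1272 (7.31%) at an unadjusted p under 0.05. Tgfbr3, the betaglycan co-receptor of inhibin and TGF-beta, read 4.55 and 4.93 in males and 5.30 and 5.06 in females at E12.5, and 7.60 and 7.56 in males and 4.67 and 5.01 in females at E13.5. Its difference went from -0.44 to 2.74, a change of 3.18 (SE 0.36, adjusted p = 0.0289). As the mean of its probe sets the E13.5 difference was 1.52 (adjusted p = 0.026 in limma), and in that setting no autosomal gene passed for the change. The call of a change was lost without any 1 of the 8 arrays of E12.5 and E13.5. The standard error of a change had a median of 0.36 among brighter genes, those above the median gene, against 0.25 for the E13.5 difference. Egr4 (change 3.89, adjusted p = 0.146), Gabra5 (-3.88, adjusted p = 0.146) and Meiob (-3.54, adjusted p = 0.202) had larger changes that did not pass.

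The steps from E12.5 to E13.5 within each sex share arrays with the sex difference and are given beside it as values. In females, 315 autosomal genes passed (1.81%), 215 rising (1.24%) and 100 falling (0.575%), and in males 350 (2.01%), 227 rising (1.3%) and 123 falling (0.707%). These counts fell whenever 1 array of the compared groups was left out, which leaves a lone array in a group and less precision. In females they fell to 8 without E12.5 replicate 1, 77 without E13.5 replicate 2, and 0 without E12.5 replicate 2 or E13.5 replicate 1 (1618 and 1805 at an unadjusted p under 0.05 in limma). In males they were 12 without E12.5 replicate 1, 150 without E12.5 replicate 2, 43 without E13.5 replicate 1 and 51 without E13.5 replicate 2. Of the 980 genes lower in males at E13.5, 140 rose in females and 71 fell in males. Of the 742 higher genes, 85 rose in males and 64 fell in females.

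Both routes occurred among the leading genes. Rec8 rose in females by 2.26 (adjusted p = 0.00235) and in males by 1.86 (adjusted p = 0.00312), so the sex difference of -3.65 at E12.5 was near that at E13.5. Meioc (3.40), Zfp541 (4.29), Meiob (3.85) and Mei1 (2.92) rose in females, and none of these 4 passed in males (0.73, 1.33, 0.32 and 0.35). Sycp1 rose in both sexes, by 2.63 in males (adjusted p = 0.00529) and 2.69 in females (adjusted p = 0.00838). Stra8 was at 9.82 and 10.08 in E12.5 females, and its further step of 2.67 did not pass (adjusted p = 0.074). Phlda2 fell by 1.67 in males (adjusted p = 0.0134) and did not pass in females (-0.33), and Dsp fell by 2.01 in males (adjusted p = 0.000886). On the male side, Hesx1 (2.17), Otx2 (1.56), Egr4 (3.38) and Bnc2 (2.94) rose in males. Lefty2 passed in neither sex (-0.36 and -0.18), and its difference at E12.5 was 6.53. Troap fell by 2.98 in females (adjusted p = 0.00413) and was level in males (-0.02).

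**Figure D5:**
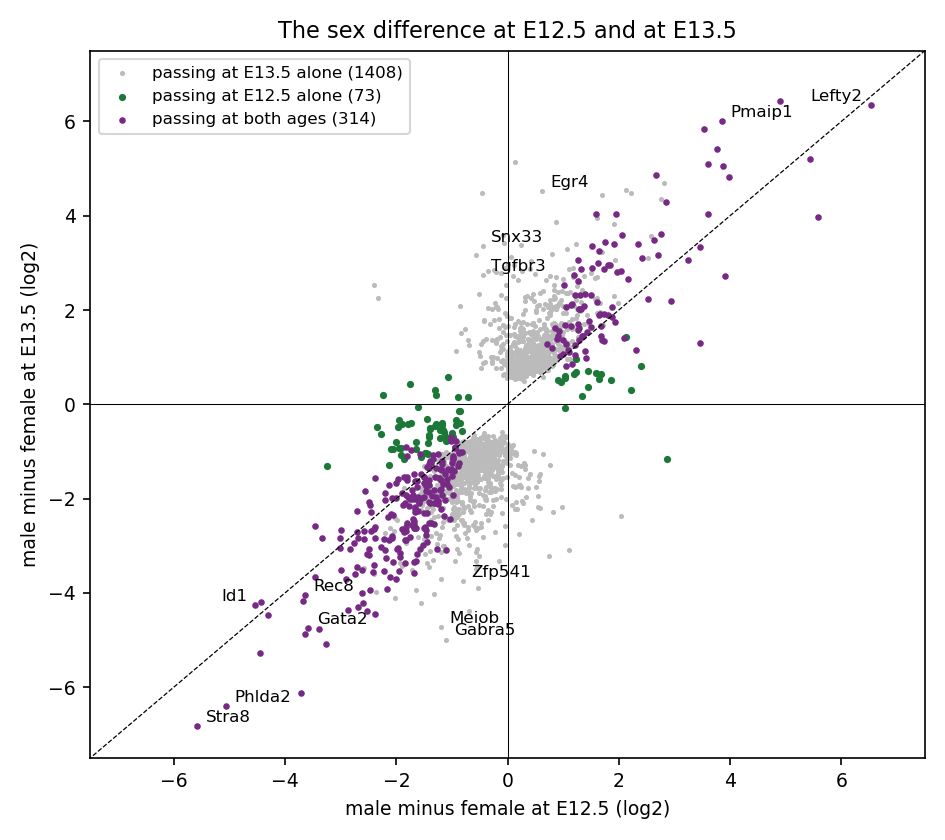
Difference between the sexes, male minus female, at E12.5 (horizontal axis) and at E13.5 (vertical axis) for autosomal genes that passed at E13.5 alone (1408, grey), at E12.5 alone (73, green) or at both ages (314, purple); the dashed line marks equal differences. Lefty2 and Id1 lie near the line, and Tgfbr3, Egr4, Zfp541, Meiob and Gabra5 lie far from it, with smaller differences at E12.5 than at E13.5. Of these, the change passed in Tgfbr3 only.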

How the data were processed

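The authors' deposited table gives log2 levels of 45101 Affymetrix probe sets on 14 arrays, normalized together by the authors, per the labels and series text; the sources used here name neither software nor method. Per the labels, the 2 arrays of E9.5 were reused and had 22 cycles. They differ in strain, PCR cycles and study, were left out of the main fit and entered only 1 alternative. Of the probe sets, 34958 had 1 gene symbol, 932 several and 9211 none; 34754 matched RefSeq (GRCm38.p6), used for chromosomes and gene order. Each gene was read from its brightest probe set by mean level over the 12 arrays. limma 3.58.1 (R 4.3.3; lmFit, eBayes with trend, 1 mean for each of 6 groups, 6 residual degrees of freedom) tested all contrasts, two-sided, with Benjamini-Hochberg adjustment over 18194 genes. The fit was tested on simulated data. The number of arrays limits the precision, and no replicate pair held identical values. No detection calls were used here.

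Named genes were up to 15 in each direction of largest difference (passing, 2-fold or more, arrays of the sexes apart, higher mean above the median gene of 6.36), up to 4 passing members of each of 30 lists in each direction, a fixed set of known genes, and genes whose sex difference changed; further list members are named, after their values were seen, to complete a count. The members and lists were chosen with earlier results of these data known. Of 540 list entries, 51 had no measured autosomal gene; 452 distinct genes were measured. Alternatives were other fits, normalizations, filters and probe set rules, array weights, the Gapdh difference as a covariate, and leaving out arrays.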

Additional observations from a re-analysis of the deposited data

Results flagged for a closer look

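Tgfbr3 was the autosomal gene whose difference between the sexes itself changed between E12.5 and E13.5 by the test of that change, by 3.18 on the log2 scale (SE 0.36, adjusted p = 0.0289 in limma). At E13.5 both male arrays (7.60 and 7.56) stood above both female arrays (4.67 and 5.01). At E12.5 the males (4.55 and 4.93) stood below the females (5.30 and 5.06), with levels near the dim limit of 4.72. No autosomal gene passed for the change with the mean of probe sets, with the compared groups fitted alone, or when adjusted over autosomal genes.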

How the results depend on the processing

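Genes higher in males numbered 742 and changed by over 1.5 times to 469 with the 4 arrays fitted alone, 1166 with median centring and 133 with replicate 2 of both sexes left out (added after seeing the data); without 1 array they were 312 to 402. The 980 lower genes were 236 with both of those arrays out and 443 to 574 without 1 array, where the lone array is taken to vary like the other groups. Of 106 list genes that passed, 47 were left without both arrays and 63 to 80 without 1. The change of the sex difference (1 gene) was 41 genes with levels floored at 3.12, 21 with array weights and 0 in the fit of compared groups alone, with the replicate block, for genes above the median level, with mean probe sets, without intensity trend, with the Gapdh covariate, adjusted over autosomal genes, without both arrays and without any 1 array (0 to 0), with 631 to 1744 at an unadjusted p under 0.05 in limma. The male step (350) was 152 alone, 190 without trend, 742 with array weights, 86 with the Gapdh covariate, 9 without both arrays and 12 to 150 without 1. The female step (315) was 205 with mean probe sets, 151 without trend, 949 with array weights, 128 with the Gapdh covariate, 11 without both arrays and 0 to 77 without 1. The cause was not tested. The replicate number as a block, 1 shift shared by all 6 groups, gave 744 higher and 1012 lower genes. Same-numbered E13.5 arrays deviated together (correlation 0.671), other pairs of groups from -0.493 to 0.692. A shared shift does not model a pairing within E13.5 alone, and the labels give the number no meaning.

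Of 123 named genes followed, 110 passed and 69 of these passed without any 1 of the 4 arrays; none of the 110 changed sign under any setting. With all arrays kept, 26 of the 110 lost the call under at least 1 alternative: under the mean of probe sets Acvr2a, Bid, Bub1b, Cdk6, Dlk1, Etv4, Grb10, Nodal, Sfrp1, Utf1 and Wnt4 (11), and under other settings Aurkb, Bmp2, Ccne1, Cdk4, Crabp1, Dnajb1, Gadd45g, Hsd3b1, Mcts2, Nlrp5, Peg10, Prdm9, Tcl1, Terb2 and Zp2; Dnmt3l and Sycp1 gained it. Among those not passing, Amh (-0.16 to 0.31 without 1 array) changed sign without female replicate 2 and without both arrays (-0.14), Dazl with centring (0.18), the Gapdh covariate (0.02), and without female replicate 1 or male replicate 2 (-0.19 to 0.17 without 1 array, 0.07 without male replicate 2), Ddx4 with centring (0.04), and Sox2 with centring (0.13) and without female replicate 2 (0.01).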

Other observations

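Some genes that differed between the sexes at E13.5 were neighbours. In the gene order of RefSeq (GRCm38.p6), 12 runs of 3 or more measured protein-coding genes in a row passed in the same direction. On chromosome 1, Lefty2 (6.36) and Lefty1 (5.20) were followed by Tmem63a, an ion channel gene, which read 9.0 and 8.99 in males and 4.94 and 4.97 in females (4.04, SE 0.25, adjusted p = 1.43e-05) and differed by 3.61 at E12.5 as well (adjusted p = 6.44e-05). A second run on that chromosome held Col6a3 (1.16), Mlph (3.87), Rab17 (1.95) and Lrrfip1 (3.26), all higher in males; Col6a3 did not pass without female replicate 2 (1.0, adjusted p = 0.0503), and Rab17 passed only without female replicate 1 (2.38) when an array was left out. On chromosome 14, Rnf31 (-1.0) and Irf9 (-1.30) lay beside Rec8 (-4.04) and were lower in males; Rnf31 did not pass once any 1 array was left out (-1.01 to -0.99), and Irf9 only without male replicate 1 (-1.72). How often such runs arise by chance, and whether reads of one gene reach probes of the next, was not tested.

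Differences were spread over the autosomes. The share of tested genes higher in males was between 2.42% (chromosome 6) and 5.58% (chromosome 19), and the share lower in males between 3.54% (chromosome 16) and 6.72% (chromosome 14).

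Some further genes, not on the lists, had a step from E12.5 to E13.5 that passed in the sex named. H2-K1, a class I histocompatibility gene, read 7.17 and 7.37 in males and 11.16 and 10.05 in females at E13.5 (-3.33, SE 0.37, adjusted p = 0.000355), after a rise of 2.88 in females (adjusted p = 0.00899) from a difference of -0.16 at E12.5. Snx33, a membrane trafficking gene, rose by 3.75 in males (adjusted p = 0.00312) to 6.95 and 6.62, against 3.34 and 3.51 in females. Fmn1, which encodes the actin nucleator formin, rose by 3.27 in males (adjusted p = 0.00284) to 7.44 and 7.43, against 4.20 and 3.90. These 3 genes were chosen after their values were seen, and the change of their sex difference did not pass (adjusted p of 0.117 for H2-K1 and 0.114 for Snx33 and Fmn1).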
